A study of Mus musculus with 4 samples.

Results

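The Tcstv genes, named from "2-cell-stage, variable group", and a pair of genes listed beside them were examined in mouse E14 embryonic stem cells after shRNA against MERVL. The members were taken by symbol: Tcstv1, Tcstv3, AF067061, AF067063, B020031M17Rik, BC061212 and B020004J07Rik. Of these 7 genes, 6 were matched to a row among the 45773 genes and MERVL copies of the count table, and B020004J07Rik was not analysed here. The whole series had 4 bulk RNA-seq libraries. E14 cells had received a pSuper puro plasmid that carried either a random shRNA (genotype labelled wild type; 2 libraries, R1 and R2 by their replicate numbers) or an shRNA against MERVL, also written MuERVL (genotype labelled MERVL knocked down; 2 libraries, M1 and M2). All cells were E14, a pluripotent line (strain labelled 12910la) grown in serum with LIF, were transfected with 1000 ng of plasmid, and were kept in puromycin at 1 µg/ml for 4 days from 24 h after transfection. The random shRNA cells therefore had the same vector and selection, and no untransfected library was analysed here. Nothing in the labels tells whether R1 and R2, or M1 and M2, came from separate cultures, so p-values measure only how far these samples lie apart, which may be technical spread.

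MERVL is an endogenous retrovirus whose long terminal repeats act as promoters in the 2-cell mouse embryo, when the embryo starts to transcribe its own genome. A small, shifting share of embryonic stem cells enters a similar 2-cell-like state and switches on MERVL, the Zscan4 genes and several multicopy gene families, with the transcription factor Dux (Duxf3 in the annotation) upstream. Tcstv1 and Tcstv3 encode small proteins of that state that have been linked to telomere lengthening in embryonic stem cells. In bulk RNA, fewer 2-cell-like cells and less RNA per such cell cannot be told apart.

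The label holds a pair of unrelated families. Tcstv1, Tcstv3, AF067061, AF067063 and B020031M17Rik lie within 490.2 kb of chromosome 13 (positions 119827961 to 120318178 of GRCm38, the assembly also called mm10), with 3 on the minus and 2 on the plus strand, and their coding sequences span 492 to 522 bases. BC061212 lies on chromosome 5 (94066151 to 94070545, minus strand) with 1446 coding bases, and B020004J07Rik on chromosome 4 (101834969 to 101844023, minus strand) with 1431. RefSeq lists B020004J07Rik under the name Pramel17, a Prame-like gene; Prame-like genes encode leucine-rich repeat proteins. The coding sequences of Tcstv3 and BC061212 shared 0 of the 499 windows of 12 bases in Tcstv3, and Tcstv3 and B020004J07Rik also shared 0. BC061212 shared 18 of its 1435 windows with B020004J07Rik and 0 with each of the 5 chromosome 13 genes, and on that ground is called Prame-like here. Identity in a global alignment does not separate it: BC061212 matched B020004J07Rik at 65.2% of 1412 aligned bases and Tcstv1 at 65.5% of 484.

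The relation within the chromosome 13 group is shown by the first stretch of 90 coding bases that aligns in all 5 genes with no gap. It covers coding bases 19 to 108 of Tcstv3, Tcstv1, AF067061 and B020031M17Rik and 1 to 90 of AF067063, read from the GENCODE transcripts of GRCm38. Capitals mark bases that differ from Tcstv3.
Tcstv3: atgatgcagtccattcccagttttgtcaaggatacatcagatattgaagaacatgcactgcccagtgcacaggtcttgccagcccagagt
Tcstv1: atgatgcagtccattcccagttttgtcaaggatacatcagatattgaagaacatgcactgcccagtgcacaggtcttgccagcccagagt
AF067061: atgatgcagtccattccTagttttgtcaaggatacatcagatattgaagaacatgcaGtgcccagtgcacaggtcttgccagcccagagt
B020031M17Rik: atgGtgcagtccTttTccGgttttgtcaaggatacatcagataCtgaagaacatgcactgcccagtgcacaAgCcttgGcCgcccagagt
AF067063: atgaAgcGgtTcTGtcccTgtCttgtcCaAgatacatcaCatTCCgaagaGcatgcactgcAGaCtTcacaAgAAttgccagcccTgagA
In this stretch Tcstv1 had 0 mismatches to Tcstv3, AF067061 had 2, B020031M17Rik 9 and AF067063 23. Over all aligned coding bases, with gaps left out, the identity to Tcstv3 was 95.9% for AF067061, 94.7% for Tcstv1 and 90.4% for B020031M17Rik (510 bases each). It was 83.1% for AF067063 (486 bases).

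The first 90 coding bases of both Prame-like genes are shown to let the families be set side by side, with capitals where B020004J07Rik differs from BC061212.
BC061212: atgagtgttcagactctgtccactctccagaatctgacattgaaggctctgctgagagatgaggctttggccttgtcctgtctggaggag
B020004J07Rik: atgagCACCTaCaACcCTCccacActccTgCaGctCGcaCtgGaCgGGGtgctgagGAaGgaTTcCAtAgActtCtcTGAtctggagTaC
These differ at 38 of the 90 bases.

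**Figure D1:**
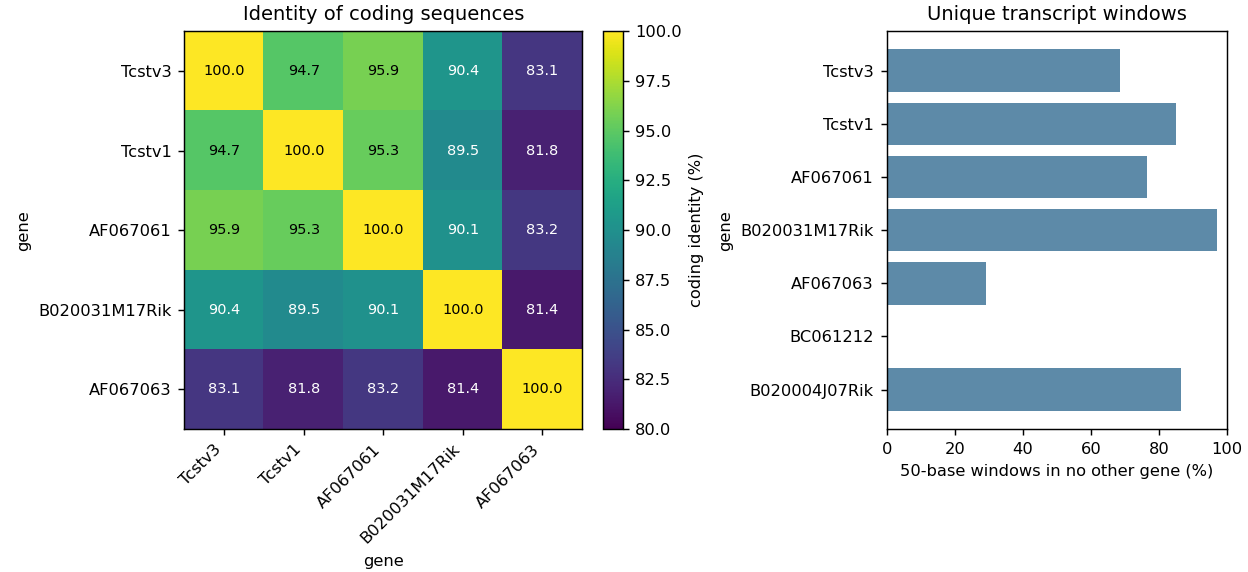
Left, percent identity of coding sequences between the 5 chromosome 13 genes, in colour and number. Right, the share of 50-base transcript windows of each gene that occur in no transcript of another annotated gene. Tcstv3, Tcstv1 and AF067061 are within 94.7% to 95.9% of each other, and BC061212 has no unique window.

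How far a read can be assigned to one member differed widely. Of the 50-base windows in its annotated transcripts, B020031M17Rik had 97.0% that occur in no other gene, Tcstv1 85.0%, AF067061 76.6% and Tcstv3 68.6%. For AF067063 the share was 29.3%, and 70.7% of its windows also occur in Gm21731, whose coding sequence is 99.6% identical over 492 aligned bases. BC061212 had 0 unique windows among 1848, and all of them also occur in Gm7978. The deposited values are fractional (for example 16.04 and 13.92 estimated counts for BC061212). The level of BC061212 alone is thus uncertain, and those of AF067063, Tcstv3 and AF067061 less so. No source used here gives the read length, so the windows describe the annotation and not the reads.

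Levels below are in CPM, counts relative to library size after TMM, an edgeR scaling that corrects for library composition. The libraries held 11628887 to 16067854 estimated counts, so that 1 count was worth 0.0629 to 0.0839 CPM. The cells had the markers of their label: 8 of 8 stem cell markers were detected, with a summed level of 7413 to 9423 CPM. Of 9 fibroblast or feeder markers, Col3a1, Postn, Lum and Dcn were at 0 in every library. The list summed to 33.8 and 45.6 CPM with random shRNA and 20.9 and 17.5 CPM with MERVL shRNA. Much of that difference lay in Thy1, at 23.1 and 28.8 CPM against 8.67 and 6.88 CPM. Col1a1, Col1a2 and Fbln2 were also lower, and Pdgfrb had 5.42 and 11.0 CPM against 9.15 and 7.59 CPM. The part of these cells in any result was not tested. Over all 2277 copies the targeted MERVL RNA stood at 4662 CPM in R1, 1434 in R2, 1163 in M1 and 573.8 in M2.

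Each of the 6 measured members was lower in M1 and M2 than in R1 and R2 (24% of all features tested were), and 0 passed the edgeR test over all features. Summed, they stood at 49.8 CPM in R1, 11.4 in R2, 5.35 in M1 and 4.85 in M2. M1 and M2 were thus 1.10-fold apart while R1 and R2 were 4.36-fold apart. The sums of all MERVL copies and of 5 Zscan4 genes differed 2.03-fold and 1.81-fold between M1 and M2. R2 was 2.14-fold above M1 in the members' sum, where it was 1.23-fold above it in the MERVL sum and 1.25-fold in the Zscan4 sum. Against M2 these sums did not differ in that way. R2 was 2.359-fold above M2 in the members' sum, 2.499-fold in the MERVL sum and 2.254-fold in the Zscan4 sum. Among the members M1 over M2 ran from 0.316 (AF067063) to 1.48 (B020031M17Rik), and R2 over M1 from 1.10 (B020031M17Rik) to 18.3 (Tcstv1). Some other 2-cell genes had M1 and M2 nearly as close as the members' sum, such as Usp17lc (1.14-fold) and Gm13119 (1.17-fold). R2 was 1.84-fold and 1.85-fold above M1 in these genes. Other 2-cell genes had M1 and M2 further apart, such as Gm5662 (1.68-fold). R2 over M1 was larger than in the members' sum in some 2-cell genes, such as Duxf3 (3.49), Gm13078 (3.22) and Ubtfl1 (2.72). It was smaller in others, such as Gm5662 (1.42) and Zscan4b (1.03). These ratios are descriptions, and differences between them were not tested.

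**Figure D2:**
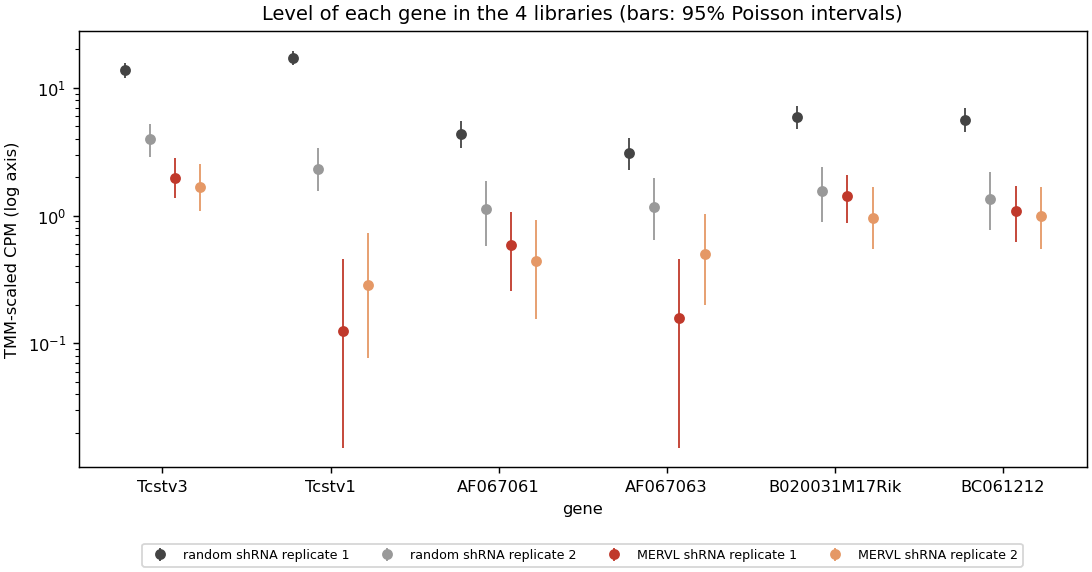
TMM-scaled CPM of the 6 measured genes (log axis) in each of the 4 libraries, as points with 95% Poisson intervals on rounded counts, which cover counting error only. R1 is highest for every gene, and the interval of R2 lies above those of M1 and M2 for Tcstv1 and Tcstv3, meets that of M2 alone for AF067063, and meets both for AF067061, BC061212 and B020031M17Rik.

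Tcstv1 (ENSMUSG00000096284, chromosome 13, 119893388 to 119894785, minus strand) had the largest difference of the 6. It had 269.5 estimated counts in R1 (17.2 CPM), 27.5 in R2 (2.31 CPM), 2 in M1 (0.126 CPM) and 4 in M2 (0.284 CPM). The groups did not overlap, and R1 was 7.46-fold above R2. The 95% Poisson interval in R2 ran from 1.56 to 3.39 CPM, above the intervals of 0.0152 to 0.454 and 0.0773 to 0.727 CPM in M1 and M2. The mean was 9.75 ± 10.5 CPM (SD, n = 2) over R1 and R2 against 0.205 ± 0.112 CPM (SD, n = 2) over M1 and M2. The log2 fold change was -5.56, with a standard error of 1.14, an edgeR adjusted p of 0.316 and few counts behind it in M1 and M2. Its share of the 6 members' summed CPM was 34.5% and 20.2% with random shRNA against 2.35% and 5.85% with MERVL shRNA. With 2 libraries against 2, an exact permutation test of such a share (2-sided) cannot go below p = 0.333.

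Tcstv3 (ENSMUSG00000095821, 120316878 to 120318178, plus strand) had the highest mean CPM of the members over the 4 libraries, although Tcstv1 was higher in R1 and in the mean of R1 and R2. It stood at 13.7 CPM in R1, 3.94 in R2, 1.98 in M1 and 1.69 in M2. M1 and M2 lay close together below both controls, which were 3.47-fold apart. The means were 8.81 ± 6.89 and 1.83 ± 0.209 CPM (SD, n = 2 each), a log2 fold change of -2.25 ± 0.60 (standard error, as after each ± on the log2 scale below; edgeR adjusted p = 0.329). Unlike that of Tcstv1, its share of the members' CPM stayed between 27.5% and 37.0% in the 4 libraries. Tcstv1 and Tcstv3 are identical over the printed stretch and 94.7% identical over their aligned coding bases. Whether their fold changes differ was not tested.

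AF067061 (ENSMUSG00000095071, 120263114 to 120264517, plus strand), the closest relative of Tcstv3 among the members, had 4.32 and 1.12 CPM with random shRNA and 0.586 and 0.438 CPM with MERVL shRNA, in replicate order. Its log2 fold change was -2.45 ± 0.74 (edgeR adjusted p = 0.329). AF067063 (ENSMUSG00000094237, 119827961 to 119830216, minus strand), the most divergent gene of the chromosome 13 group, had 3.09 and 1.17 CPM with random shRNA and 0.157 and 0.497 CPM with MERVL shRNA. It was the member besides Tcstv1 for which M1 was the lowest library. Its log2 fold change was -2.79 ± 0.77 (edgeR adjusted p = 0.329), resting on 2.5 and 7 estimated counts in the MERVL shRNA libraries.

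B020031M17Rik (ENSMUSG00000078537, 119949357 to 119950806, minus strand), whose windows are nearly all unique, differed least. It stood at 5.90 CPM in R1, 1.55 in R2, 1.41 in M1 and 0.958 in M2. R2 was 1.10-fold above M1, and their Poisson intervals (0.895 to 2.39 and 0.867 to 2.09 CPM) overlapped. The log2 fold change was -1.64 ± 0.67 (edgeR adjusted p = 0.365). The Prame-like BC061212 (ENSMUSG00000072822) had the same order of libraries, with 5.63 and 1.35 CPM under random shRNA and 1.08 and 0.988 CPM under MERVL shRNA. Its log2 fold change was -1.76 ± 0.69 (edgeR adjusted p = 0.353).

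Of the 16353 features tested, 0 were called lower (0% of features) and 1 was called higher (0.00612%), and 0 of the 6 members were called. At an unadjusted p under 0.05 all 6 members were lower, beside 8.92% of features, and limma-voom called 0 members (0% of features lower) while DESeq2 called 2, Tcstv1 and Tcstv3, beside 1.11% of features, and gave AF067063 no adjusted p. With no filter on low counts edgeR called all 6, beside 3.76% of features. The median log2 fold change was -2.35 over the members and -0.01 over all features. Tcstv1, AF067061 and AF067063 passed the filter on low counts through the random shRNA libraries alone, so a difference was built into their selection; the members were also chosen with earlier results known, and their counts and median are descriptions. Tcstv3, BC061212 and B020031M17Rik passed it in the MERVL shRNA libraries too.

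The size of these values, and which were called, moved with R1. Without it, which leaves a lone control assumed to vary like M1 and M2, the log2 fold change was -3.49 ± 0.74 for Tcstv1 (edgeR adjusted p = 9.74e-05), -1.07 ± 0.39 for Tcstv3 (adjusted p = 0.0478), -1.92 for AF067063, -1.11 for AF067061, -0.37 for BC061212 and -0.33 for B020031M17Rik. Tcstv1 and Tcstv3 were called there, beside 7.28% of features called lower, and the others had adjusted p-values of 0.101 to 0.773. Without R2 all 6 were called, beside 17.4% of features, with log2 fold changes of -6.35 to -2.27. Without M1, and without M2, 0 were called (0% of features lower each time), and the log2 fold change nearest to 0 was -1.40. That of AF067063 was -2.05 without M1 and -3.98 without M2.

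**Figure D3:**
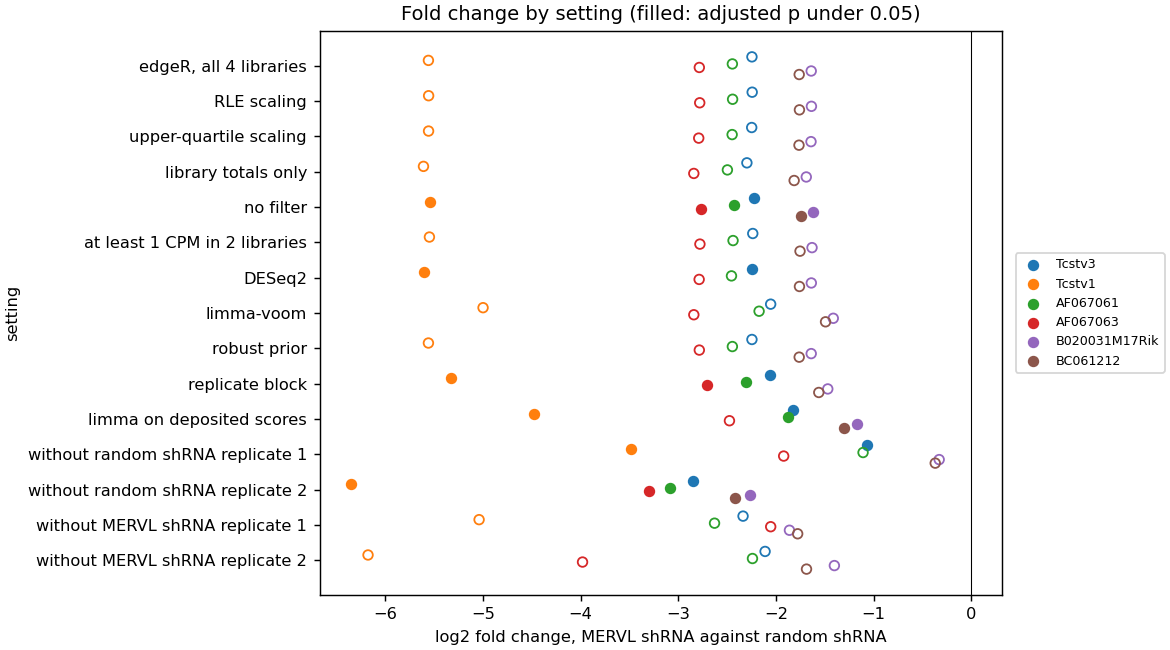
Log2 fold change of each gene between MERVL shRNA and random shRNA under each setting, with filled points where the adjusted p is under 0.05. All points lie below 0; Tcstv1 is lowest in each setting, and BC061212 and B020031M17Rik come nearest to 0 without R1.

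The authors' second table, of normalized scores, reversed the order of the controls. In scores, Tcstv1 had 68 in R1, 107 in R2, 2 in M1 and 4 in M2, and Tcstv3 had 93, 111, 31 and 25 in the same order. R1 was thus below R2 for both genes, where the estimated counts put it 7.46-fold and 3.47-fold above. Over the 6 members the ratio of R1 to R2 was 2.64 to 7.46 in CPM and 0.636 to 0.907 in score. All 6 members were among the 27.8% of tested features that were higher in R1 than in R2 in CPM and lower in score. With limma on log2(score + 1), 5 of 6 members were called lower, beside 14.5% of features: Tcstv1 (-4.48 ± 0.38), AF067061 (-1.88 ± 0.25), Tcstv3 (-1.83 ± 0.16), BC061212 (-1.30 ± 0.14) and B020031M17Rik (-1.18 ± 0.25), with adjusted p-values of 0.0244 to 0.0489. AF067063 had the same direction (-2.48 ± 0.56, adjusted p = 0.053). No source used here says how the authors computed the scores, and the part of that step in the smaller spread of R1 and R2 was not tested.

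**Figure D4:**
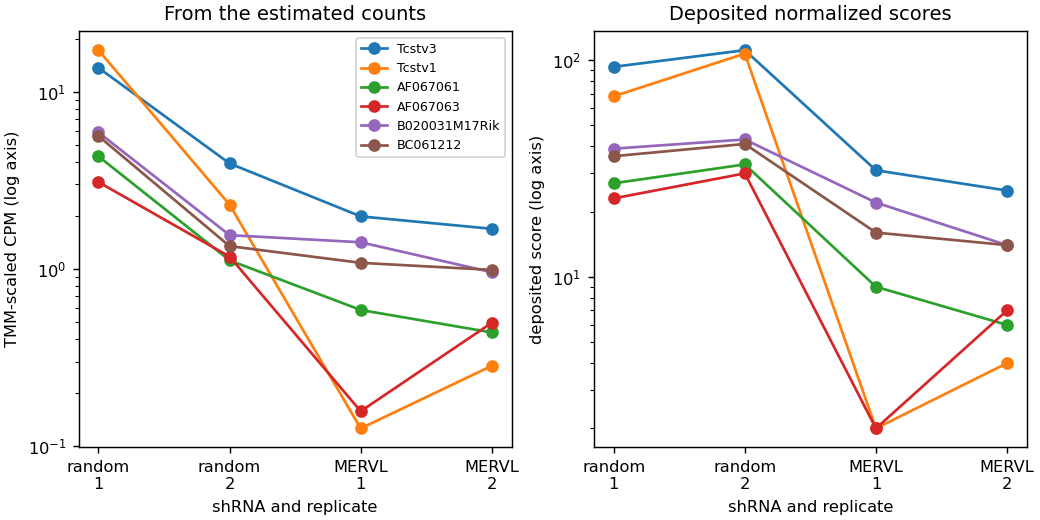
Level of each gene in the 4 libraries from the estimated counts (left, TMM-scaled CPM, log axis) and in the authors' normalized scores (right, log axis), with lines joining the values of one gene. R1 is above R2 for all 6 genes on the left and below it for all 6 on the right.

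Per kilobase of exon, which allows genes to be compared, Tcstv3 led the random shRNA libraries at a mean of 11.3 CPM per kb. Tcstv1 followed at 6.97, B020031M17Rik at 4.03, AF067063 at 2.41, AF067061 at 1.94 and BC061212 at 1.84 CPM per kb. The SD between the controls was 1.53 to 8.84 CPM per kb, and in each neighbouring pair the larger SD exceeded the gap between the means. Within a library the order was steadier: 4 of the 5 neighbouring pairs had the same order in R1 and in R2, and Tcstv1 and B020031M17Rik did not. Tcstv1 had 12.3 CPM per kb in R1 against 6.38 for B020031M17Rik, but 1.65 against 1.68 in R2. These orders were not tested. With MERVL shRNA the order of the means was Tcstv3 (2.35 CPM per kb), B020031M17Rik (1.28), BC061212 (0.546), AF067063 (0.369), AF067061 (0.365) and Tcstv1 (0.146), so Tcstv1, next to Tcstv3 by the mean and in R1 but not in R2, was last.

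Other genes with a similar coding sequence were also lower in M1 and M2. At 80% identity or more over at least 400 aligned bases, a limit set after seeing the sequences, 7 further protein-coding genes were closest to a chromosome 13 member, and 5 of them were tested. All 5 lay below both controls, as 24% of all features did, and 0 passed the edgeR test (log2 fold changes of -2.53 to -1.88, beside the median of -0.01 over all features). Gm21762, which had the -2.53, passed the filter on low counts (0.665 CPM) through the random shRNA libraries alone. A difference was thus built into its selection. Gm20767, 96.7% identical to AF067061, had a higher CPM than any member in each library, without scaling by length. It had 88.2 and 24.5 CPM under random shRNA and 18.6 and 11.1 CPM under MERVL shRNA. Gm21818, 96.9% identical to Tcstv1, had 20.2 and 6.67 CPM against 2.83 and 2.96 CPM, and BC147527, 92.2% identical to Tcstv3, had 6.62 and 3.65 CPM against 1.41 and 1.44 CPM. Of D13Ertd608e and Gm21762, both 82.9% identical to Tcstv3, the first had 14.0 and 4.15 CPM against 2.20 and 2.38 CPM and the second 3.99 and 1.43 CPM against 0.471 and 0.426 CPM. Gm21818, BC147527, D13Ertd608e and Gm21762 had M1 and M2 within 1.11-fold of each other, whereas Gm20767 had them 1.67-fold apart. Without R1 the log2 fold change was -1.39 for BC147527, -0.86 for D13Ertd608e and -1.59 for Gm21762. Gm7978, identical to BC061212 in its coding sequence, had 5.46 and 1.30 CPM against 1.02 and 0.988 CPM, which are close to the values of BC061212 itself. No source used here says how reads that fit several of these genes were counted, so the relatives and members are not independent measurements.

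Within 500 kb of a member start on that chromosome, 13 other genes were tested. The 5 relatives had a median log2 fold change of -1.99 and all lay below both controls. Of the other 8, 0 lay below both controls, 1 lay above and 7 overlapped, with a median of -0.09. Of all 16353 features tested, 3929 lay below both controls and 3627 above. Zfp131, a zinc finger gene 62774 bp from AF067063 by gene starts, had 67.6 and 43.4 CPM under random shRNA and 55.3 and 45.2 CPM under MERVL shRNA, a log2 fold change of -0.15 ± 0.23 (edgeR adjusted p = 0.837). Gm21358, a processed pseudogene inside the block and 28540 bp from Tcstv1, overlapped between the groups (-1.35 ± 0.88, adjusted p = 0.565), and ran from -3.12 without M1 to -0.15 without R1. Nim1k, a protein kinase gene, was the one above both controls, at 0.638 and 1.43 CPM against 2.77 and 3.41 CPM (1.60 ± 0.49, adjusted p = 0.329). Its R1 value was under the filter's 0.665 CPM, so Nim1k passed the filter only with the help of the MERVL shRNA libraries. Relatives were sought among protein-coding genes alone, so Gm21358 and the processed transcript Gm9752 count as other genes without a comparison by sequence. Whether the relatives differ from the other genes was not tested.

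**Figure D5:**
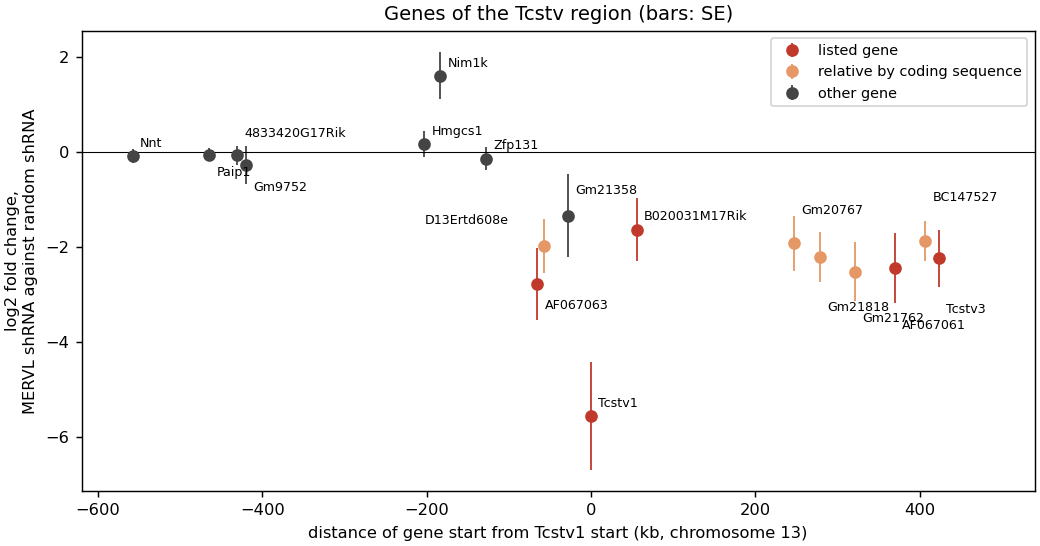
Log2 fold change (bars, SE) of tested genes by the distance of their start from that of Tcstv1 on chromosome 13, in kb; listed genes in red, relatives by coding sequence in orange, other genes in black. The listed genes and relatives lie between -5.56 and -1.64, and the other genes between -1.35 and 1.60. Gm21358 (-1.35) and Gm9752, which are not protein-coding, were not compared by sequence.

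Around BC061212 on chromosome 5, 3 genes were tested and all 3 lay below both controls, as 24% of all features did. Of these, Gm6351 (10234 bp away by gene starts) had 5.89 and 1.74 CPM with random shRNA against 1.66 and 1.21 CPM under MERVL shRNA (log2 fold change of -1.43 ± 0.61, edgeR adjusted p = 0.375, and -0.30 without R1). Another of the 3, Gm16429, is 97.6% identical to BC061212 in its coding sequence. Around B020004J07Rik on chromosome 4, 8 genes were tested, 3 below both controls and 5 above, where 3627 of all 16353 features lay above. Among the 5 was C130073F10Rik at 0.05 ± 0.32 (edgeR adjusted p = 0.966), whose sign turns when libraries are scaled by their totals alone (-0.01). Among the 3 below were Gm12794 and Gm12800, 81.7% and 82.2% identical to B020004J07Rik. They had log2 fold changes of -2.25 ± 0.58 and -2.22 ± 0.72 (edgeR adjusted p = 0.329 for both).

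Of the promoter sequences in RefSeq's GRCm38.p6 table, those of 2 of the 7 genes were matched, AF067061 and B020004J07Rik. That of AF067061, whose level is given above, is shown as the one chromosome 13 member matched: the 250 bases before the RefSeq start, which lies upstream of the GENCODE start given above, chr13:120262845-120263094 on the plus strand, with the motif TATATAA in capitals.
AF067061 promoter: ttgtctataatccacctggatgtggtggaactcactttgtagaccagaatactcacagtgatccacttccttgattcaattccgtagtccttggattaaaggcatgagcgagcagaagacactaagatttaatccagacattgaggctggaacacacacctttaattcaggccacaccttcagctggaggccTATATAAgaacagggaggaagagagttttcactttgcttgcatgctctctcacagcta
The letters TATATAA, a form of the TATA box, begin 58 bases before the RefSeq start, and 3.04% of 32851 promoter windows of 250 bases hold them on either strand. The window of B020004J07Rik, not shown, does not hold them, but it holds the shorter TATAA close to its RefSeq start. Whether either gene has a working TATA box was not tested. A match is a description and not a site.

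Other genes of the 2-cell-like state were mostly lower too. Of 40 listed symbols, which include Gm20767 and Gm12794 above, 34 were matched to a row and 31 were tested. Some, such as Gm13078 and Zfp352 (0.568 and 0.426 CPM in M2), were under the filter's 0.665 CPM there. They passed it only with the random shRNA libraries. Of the 31, 31 had a negative log2 fold change (8405 of all 16353 features did) and 28 lay below both controls (24% of all features did). Of them 0 were called and the median was -1.93. By the smallest p these were Gm13119, a Prame-like gene (-1.31 ± 0.23, edgeR adjusted p = 0.283), Gm13078, also Prame-like (-2.23 ± 0.46, adjusted p = 0.318), the HMG-box gene Ubtfl1 (-2.53 ± 0.53, adjusted p = 0.323) and Duxf3. The activator Duxf3 had 6.86 and 2.92 CPM with random shRNA and 0.835 and 1.25 CPM in M1 and M2. Its log2 fold change was -2.24 ± 0.54 (edgeR adjusted p = 0.329). In Duxf3, a multicopy gene whose counts are partly fractional, M1 was the lowest library, as in Tcstv1 and AF067063. Without R1 the log2 fold changes were -0.99 for Gm13119, -1.85 for Gm13078, -1.75 for Ubtfl1 and -1.49 for Duxf3. The median ratio of R1 to R2 was 3.29 over the list and 3.84 over the members.

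Regulators of the state, from repressors such as Trim28 and Kdm1a to activators such as Dppa2 and Dppa4, had no common direction. Of 26 tested, 14 were negative and 12 positive, 0 were called, and the median was -0.06. The smallest p-values after Duxf3 belonged to Nelfa, a subunit of a factor that pauses RNA polymerase II (258.2 and 121.8 CPM against 87.7 and 83.5 CPM; -1.15 ± 0.33, edgeR adjusted p = 0.329), the retroelement repressor Zfp809 (-0.80 ± 0.31, adjusted p = 0.350) and the SUMO ligase Pias4 (0.32 ± 0.13, adjusted p = 0.366). Without R1 the log2 fold change was -0.50 for Nelfa and -0.42 for Zfp809, and without R2 it was -1.58 and -1.06. Nelfa had the same order of libraries as Tcstv3, and Pias4 the opposite order of groups.

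By the distance between centred log2(CPM + 1) profiles over the 4 libraries, the features nearest to Tcstv3 were the deubiquitinase gene Usp17lc, Gm8711, ENSMUSG00000096408 (no symbol matched), Igfbp3 and a copy of MERVL with its repeats, MT2_Mm 425. Usp17lc had 52.5 and 17.01 CPM under random shRNA and 9.26 and 8.12 CPM under MERVL shRNA. Igfbp3, which encodes a secreted protein that binds insulin-like growth factors, had 61.0 and 22.6 CPM against 12.01 and 12.1 CPM, with a log2 fold change of -1.80 ± 0.44 (edgeR adjusted p = 0.329). Without R1 it was -0.90 for Igfbp3 and -0.97 for Usp17lc, and without R2 -2.33 and -2.58. The distances were 0.0929 to 0.182 among 15204 candidates, and that of the nearest member, AF067061, was 0.469. The added 1 shrinks the profiles of low genes on this scale.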

How the data were processed

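Genome build mm10 and the tools HISAT2 and Trim Galore are named per the submitters' processing notes; the sources used here do not give the counting program, its strand setting or any version. The authors deposited estimated counts per Ensembl gene and per MERVL or MT2_Mm copy (19.1% to 20.8% of values not whole), and a table of normalized scores for 17823 features, which were exactly the features that had more than 5 estimated counts in 2 or more libraries. Both tables' columns were matched to samples by the shRNA and replicate number in their names. Estimated counts were rounded and tested with edgeR 4.0.16 (quasi-likelihood F test, 2-sided, R 4.3.3) after TMM; 15735 genes and 618 copies passed filterByExpr; the Benjamini-Hochberg adjustment ran over all 16353, with a threshold of 0.05, and standard errors came from the F statistic. DESeq2 1.42.0, limma 3.58.1 (voom, and log2(score + 1) for features with a mean score of at least 1), other scalings and filters, a robust prior, a replicate term and each library left out were alternatives. Counts were also simulated with these means and library sizes, each feature drawn independently with the spread edgeR fitted to features of like abundance. There edgeR recovered 80% of 4-fold and 26.6% of 2-fold changes, with 2 false calls among 16060 features. These rates need not hold for the members, whose R1 and R2 differed 2.64-fold to 7.46-fold. Positions, exon lengths and transcripts came from GENCODE M21 (GRCm38). Coding sequences were aligned globally with Biopython 1.88, identities were taken over aligned bases without gaps, and promoters came from RefSeq.

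The members and lists were chosen with earlier results of these data known. Named genes were all members, up to 4 genes of each list with the smallest p, the 6 tested genes nearest to a member, and the 5 features with at least 1 CPM nearest to the most abundant member; the relatives by sequence, and genes named from the chromosome plots besides, were named after their values were seen. Trophectoderm markers summed to 41.3 to 69.1 CPM and primitive endoderm markers to 11.4 to 17.0 CPM. Poisson intervals cover counting error only.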

Additional observations from a re-analysis of the deposited data

How the results depend on the processing

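The 6 measured members kept a negative log2 fold change in all 84 values over 14 alternatives, and 25 of these passed the threshold. The 0 members called lower became 6 with no filter, 2 with DESeq2, 4 with a replicate block and 5 on the deposited scores, and with a library left out ran from 0 to 6. Features called lower, 0 in all, became 1023 with no filter, 157 with DESeq2, 628 with a replicate block and 2581 on scores, and ran from 0 to 2985 with a library left out; features called higher (1) became 270, 65, 110 and 2338, were 0 with limma-voom, and ran from 2 to 2557. Other 2-cell genes called lower (0) became 29 with no filter, 10 with DESeq2, 28 with the block and 21 on scores, and ran from 0 to 32. Regulators called lower (0) became 4, 1, 2 and 5 in that order and ran from 0 to 8; those called higher (0) became 4 on scores and ran from 0 to 5. Neighbours called lower (0) became 8, 4, 7 and 9 and ran from 0 to 14; those called higher (0) became 2 with no filter and 4 on scores and ran from 0 to 5. The cause was not tested. C130073F10Rik turned to -0.011 with library totals alone.

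With the replicate block Tcstv1, Tcstv3, AF067061 and AF067063 were called (adjusted p = 0.00145, 0.0126, 0.0279 and 0.0368), and BC061212 and B020031M17Rik were not (0.110 and 0.101). Beside them 3.84% of features were called lower. What libraries with one replicate number have in common is not labelled; their deviations had a correlation of 0.223 across features, which are not independent. Depth limits Tcstv1, AF067063 and AF067061, which had under 10 estimated counts in each MERVL shRNA library.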
